A study of Mus musculus with 10 samples.

Results

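The 10 genes described here encode the core of the MHC class I pathway and were chosen by their symbols, namely B2m, H2-K1, H2-D1, Tap1, Tap2, Tapbp, Nlrc5, Psmb8, Psmb9 and Psmb10. They are 10 of the 55487 genes of the count tables, and all 10 stand in the matrix of 15686 genes and passed the filter on low counts, which left 22596 genes for testing. They were chosen to describe a gain of antigen presentation when cells leave the ES state. Most members were not called higher than in ES at any stage. In HB 1 was called higher (Psmb8) and 1 lower, beside 11.5% and 17.3% of all tested genes, and in HP 2 were higher (B2m and Psmb10) and 1 lower, beside 16.7% and 21.9%. B2m was the only member called higher in HE1 and HE2 (20.3% and 16.3% of all tested genes). Of the other 9, 3 were called lower in HE1 and 7 in HE2, beside 20.4% and 21.9% of all tested genes, and 2 of the 7 remained without HE2 replicate 2.

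Nuclear RNA was sequenced from mouse ES cells of the HM-1 line and from 4 populations made from them by differentiation in serum, with 2 libraries per stage and 10 in all. ES cells were kept in serum with LIF. The haemangioblast population (HB) was enriched on a magnetic column for the VEGF receptor FLK1 from embryoid bodies at day 3, and the other populations were taken from a blast culture of these cells after a further 2.5 days with VEGF, IL-6 and medium conditioned by D4T endothelial cells. They were the first stage of haemogenic endothelium (HE1, KIT+ TIE2+ CD41-), the second stage (HE2, KIT+ TIE2+ CD41+) and haematopoietic progenitors (HP, KIT+ TIE2- CD41+). All of them carry the genome of the same line, no interferon was part of the culture as described, and the study describes its replicates as biologically independent, while the labels do not say whether the libraries of a stage came from separate cultures. The tests measure the spread between these libraries.

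MHC class I molecules display peptides from inside the cell to CD8 T cells and also set the threshold for natural killer cells. Proteins are cut by the proteasome, whose catalytic subunits can be exchanged for the interferon-inducible subunits Psmb8, Psmb9 and Psmb10. The peptides are pumped into the endoplasmic reticulum by the transporter made of Tap1 and Tap2, and tapasin (Tapbp) holds the transporter close to the empty heavy chain. The heavy chains of H2-K1 and H2-D1 pair with the light chain β2-microglobulin (B2m) for stable display at the surface. Nlrc5 is a transactivator of MHC class I genes, and ES cells and early embryonic cells are known for low surface class I.

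Counts per library lay between 24920434 and 58782055, so that 3 counts, the floor used here, equal 0.051 to 0.12 CPM, which covers counting error only. Levels are given as CPM, the counts scaled to library size with TMM factors, and the values of both libraries of a stage are given, with a mean ± SD for sums over genes per kb. A gene was called higher or lower when the adjusted p of edgeR's quasi-likelihood test was under 0.05 and the change was at least 2-fold (1 on the log2 scale). The summed level of 8 ES markers was 3550 to 3591 CPM in ES and 465 to 470 in HB, against 48.2 and 124 in HE1, 11.1 to 22.4 for HE2 and 10.4 to 14.2 in HP. The other populations also held their own markers. The 6 HB markers were at 14.8 to 15.5 CPM in ES and 1573 to 1922 in HB. The 6 haemogenic endothelium markers were at 415 to 435 in ES and 2095 to 3607 in HE1. The 6 progenitor markers were at 7.23 to 8.12 in ES and 1008 to 1202 in HP. These sums did not fully separate the later stages. The HB markers were at 843 to 1463 in HE1, 1010 to 1214 in HE2 and 700 to 761 in HP. In HE2 the haemogenic endothelium markers were at 1529 to 2257, overlapping HE1. The progenitor markers were there at 895 to 1177, overlapping HP. The sum of 6 lymphoid markers was at most 4.59 CPM in any library, and 6 erythroid markers reached 2432 to 4768 in HP. The HE1 libraries differed in the ES marker sum, with 2.82 CPM of Pou5f1 in replicate 1 and 26.3 in replicate 2, and results for HE1 are also given without replicate 2 where that ends a call. In bulk RNA, fewer cells of a type and less RNA per cell cannot be told apart.

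Among the 10 genes, 7 lie within 1.35 Mb on chromosome 17 (mm10), in the MHC. Tapbp (33915899 to 33929292, plus strand) comes first and is followed by H2-K1 (33996017 to 34000347, minus strand). Psmb9 (34181987 to 34187764, minus strand), Tap1 (34187553 to 34197225, plus strand), Psmb8 (34197721 to 34201454, plus strand) and Tap2 (34203527 to 34216321, plus strand) form a tight cluster, and H2-D1 (35262730 to 35267499, plus strand) lies 1046408 bases beyond it. B2m lies on chromosome 2 (122147686 to 122153083, plus strand), and Nlrc5 (94434356 to 94527272, plus strand) and Psmb10 (105935735 to 105938444, minus strand) lie on chromosome 8.

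The promoters are shown for the light chain, for both classical heavy chains and for the transporter gene that shares its promoter with an immunoproteasome subunit, because B2m rose, the heavy chains were lower in at least 1 stage and Tap1 was called in no comparison. RefSeq promoter sequences (GRCm38.p6, 250 bases before to 50 bases after the start site) were found for 8 of the 10 genes, and Tap2 and Nlrc5 had no entry. Capitals mark letters that match the ISRE (GAAA repeated with 2 bases between, the element bound by interferon-activated factors), the GAS (TTCNNNGAA, the interferon-γ-activated site) or the loose NF-kB pattern (GGG and CC with 5 bases between), read on both strands, where matches of these patterns may overlap each other.
B2m, chr2:122147437-122147736, plus strand: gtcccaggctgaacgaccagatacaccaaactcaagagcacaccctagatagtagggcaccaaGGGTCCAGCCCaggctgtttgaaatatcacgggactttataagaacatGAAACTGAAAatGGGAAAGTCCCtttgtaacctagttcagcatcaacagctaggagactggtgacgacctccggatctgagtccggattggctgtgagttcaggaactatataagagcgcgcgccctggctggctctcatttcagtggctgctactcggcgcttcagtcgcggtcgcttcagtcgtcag
H2-K1, chr17:34000298-34000597, minus strand: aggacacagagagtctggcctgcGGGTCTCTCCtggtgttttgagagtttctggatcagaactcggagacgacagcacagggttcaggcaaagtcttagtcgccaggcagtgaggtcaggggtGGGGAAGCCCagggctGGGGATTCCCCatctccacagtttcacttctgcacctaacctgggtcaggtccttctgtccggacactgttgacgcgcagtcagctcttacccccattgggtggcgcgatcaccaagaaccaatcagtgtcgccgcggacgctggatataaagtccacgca
H2-D1, chr17:35262844-35263143, plus strand: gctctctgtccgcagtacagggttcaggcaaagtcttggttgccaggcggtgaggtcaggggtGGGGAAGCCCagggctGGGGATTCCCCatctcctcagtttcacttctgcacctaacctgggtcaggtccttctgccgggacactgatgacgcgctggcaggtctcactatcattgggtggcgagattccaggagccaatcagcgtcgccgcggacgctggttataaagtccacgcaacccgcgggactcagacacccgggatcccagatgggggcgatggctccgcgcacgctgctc
Tap1, chr17:34187306-34187605, plus strand: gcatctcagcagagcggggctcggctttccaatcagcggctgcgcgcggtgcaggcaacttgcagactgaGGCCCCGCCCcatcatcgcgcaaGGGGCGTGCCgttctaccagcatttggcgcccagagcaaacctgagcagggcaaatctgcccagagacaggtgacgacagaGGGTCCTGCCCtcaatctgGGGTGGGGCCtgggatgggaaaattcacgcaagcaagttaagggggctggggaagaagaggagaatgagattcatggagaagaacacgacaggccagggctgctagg

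The ISRE letters were found only in the B2m promoter among the 8 genes with a sequence, as GAAACTGAAA starting 139 bases before the start site, and 3.44% of all 32851 RefSeq promoters of this length hold them. The same letters match the stricter IRF1 core (with T as the second base between), which 0.791% of the promoters hold. The GAS letters were found only in Psmb8, against 8.3% of all promoters. The NF-kB pattern occurs in 50.8% of all promoters, and B2m, H2-K1, H2-D1, Tap1 and Psmb9 held it. H2-K1 and H2-D1 share the run GGGGATTCCCC, and their windows share an identical stretch of 47 bases. The CRE core TGACG was found in B2m, H2-K1, H2-D1, Tap1 and Psmb9, against 20.8% of all promoters. CCAAT was found in these 5 genes and Tapbp, against 37.4%, and TATAAA in B2m, H2-K1, H2-D1 and Psmb8, against 13.6%. No window held the full CRE (TGACGTCA) or the X box core, which 1.79% and 2.8% of all promoters hold. The Tap1 and Psmb9 windows run in opposite directions and have 275 bases in common. A match is a description of letters and not a site, and a missing match says only that these letters are not in the window.

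**Figure D1:**
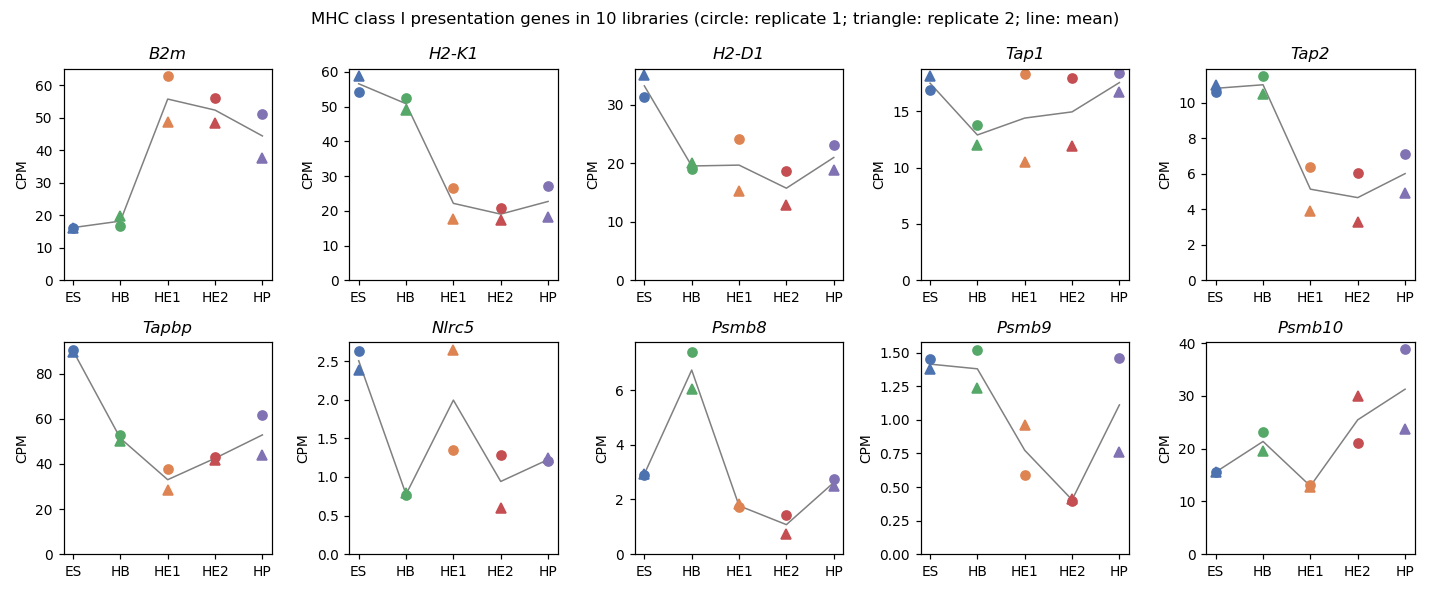
Level in CPM (y axis, from 0) of each of the 10 genes in the 10 libraries by stage (x axis), with 1 point per library and a line through the stage means. B2m rises between HB and HE1, and Psmb8 peaks in HB. The points of H2-K1, Tap2 and Tapbp from HE1 on lie below those of ES, but in HP only H2-K1 was called lower.

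The light chain gene B2m was low in ES and HB and rose between HB and HE1. It was at 16.2 and 16.2 CPM in ES, 16.7 and 19.7 in HB, followed by 62.8 and 48.7 in HE1, 56.2 and 48.5 CPM in HE2 and 51.1 and 37.7 in HP. Every library of HE1, HE2 and HP was above every library of ES and HB, and the ranges of HE1, HE2 and HP overlapped in their order. Against ES, B2m was 3.44-fold higher in HE1 (log2 change 1.78 ± 0.199 (SE), adjusted p = 4.46e-05). The change was 3.23-fold in HE2 (log2 change 1.69 ± 0.199 (SE), adjusted p = 5.63e-05) and 2.74-fold in HP (log2 change 1.46 ± 0.197 (SE), adjusted p = 0.000149). HB and ES differed by log2 change 0.17 ± 0.196 (SE), adjusted p = 0.528, which was not called, and the step from HB to HE1 was called (log2 change 1.61 ± 0.199 (SE), adjusted p = 0.000263). Without HE1 replicate 2 the log2 change of HE1 against ES was 1.96 (adjusted p = 8.99e-05).

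The classical heavy chain gene H2-K1 fell between HB and HE1, whereas H2-D1 did not pass the test there (log2 change 0.01 ± 0.251 (SE), adjusted p = 0.986). H2-K1 was at 54.3 and 58.9 CPM in ES, 52.6 and 49.1 in HB, followed by 26.6 and 17.7 in HE1, 20.7 and 17.4 CPM in HE2 and 27.2 and 18.2 in HP. Both ES libraries were above all others, HB came next without overlap, and the last 3 stages overlapped in their order. H2-K1 was lower than in ES in HE1 (log2 change -1.36 ± 0.235 (SE), adjusted p = 0.000786), HE2 (log2 change -1.57 ± 0.236 (SE), adjusted p = 0.000303) and HP (log2 change -1.32 ± 0.234 (SE), adjusted p = 0.000887). The step from HB to HE1 was also called (log2 change -1.20 ± 0.235 (SE), adjusted p = 0.00371), but without HE1 replicate 2 it was -0.93 (adjusted p = 0.0255), which is under 2-fold. H2-D1 was at 31.4 and 35.1 CPM in ES, 19 and 20.1 in HB, followed by 24.2 and 15.2 in HE1, 18.7 and 12.8 CPM in HE2 and 23.1 and 18.9 in HP. Both ES libraries were again above all others, while HB and HE1 overlapped. H2-D1 was called lower in HE2 only (log2 change -1.08 ± 0.252 (SE), adjusted p = 0.0045), and without HE2 replicate 2 that log2 change was -0.84. Its changes in HB (log2 change -0.77 ± 0.25 (SE), adjusted p = 0.0309), HE1 (log2 change -0.76 ± 0.251 (SE), adjusted p = 0.0253) and HP (log2 change -0.66 ± 0.249 (SE), adjusted p = 0.0449) passed the adjusted p but were under 2-fold.

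The genes of the peptide-loading complex fell or did not pass the test. Tapbp had 90.7 and 89.6 CPM in ES, with 52.6 and 50.1 in HB, followed by 37.7 and 28.3 in HE1, 43.2 and 41.8 CPM in HE2 and 61.7 and 44 in HP. Both ES libraries were above all others, and 4.11% of the exon bases of Tapbp also belong to Zbtb22 on the same strand. Tapbp was lower in HE1 (log2 change -1.45 ± 0.19 (SE), adjusted p = 0.000127) and HE2 (log2 change -1.08 ± 0.188 (SE), adjusted p = 0.000744), and its changes in HB (log2 change -0.81 ± 0.186 (SE), adjusted p = 0.00568) and HP (log2 change -0.77 ± 0.186 (SE), adjusted p = 0.00549) were under 2-fold. Tap2 was at 10.6 and 11 CPM in ES, 11.5 and 10.5 in HB, followed by 6.35 and 3.9 in HE1, 6.03 and 3.27 CPM in HE2 and 7.1 and 4.9 in HP. ES and HB overlapped, and both were above every library of the other stages. Tap2 was called lower than in ES in HE1 (log2 change -1.08 ± 0.347 (SE), adjusted p = 0.0222) and HE2 (log2 change -1.22 ± 0.347 (SE), adjusted p = 0.0133), and lower in HE1 than in HB (log2 change -1.10 ± 0.348 (SE), adjusted p = 0.034). Its change in HP against ES was not called (log2 change -0.85 ± 0.342 (SE), adjusted p = 0.0596). Without HE1 replicate 2 the changes of HE1 were -0.76 against ES (adjusted p = 0.129) and -0.78 against HB (adjusted p = 0.17), and neither was called, and without HE2 replicate 2 that of HE2 was -0.85 (adjusted p = 0.0928). The call in HE1 was also lost without ES replicate 1 (adjusted p = 0.0602) or 2 (adjusted p = 0.0672) and with total counts in place of TMM (log2 change -0.99), and that against HB without HB replicate 1 (adjusted p = 0.097) or 2 (adjusted p = 0.0884). Tap1, its partner, was at 16.9 and 18.1 CPM in ES, 13.8 and 12 in HB, followed by 18.3 and 10.5 in HE1, 18 and 11.9 CPM in HE2 and 18.4 and 16.7 in HP. All neighbours in its order overlapped and no change was called, with log2 change -0.45 ± 0.275 (SE), adjusted p = 0.23 in HB and log2 change 0.0034 ± 0.273 (SE), adjusted p = 0.993 in HP. The 2 subunits of the transporter thus differed in which calls they received, and the difference between the genes was not tested.

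The transactivator gene Nlrc5 was lower in HB and HE2 than in ES. It was at 2.63 and 2.38 CPM in ES, 0.76 and 0.789 in HB, followed by 1.35 and 2.64 in HE1, 1.28 and 0.603 CPM in HE2 and 1.21 and 1.24 in HP. ES and HB did not overlap, while HE1 replicate 2 was at the ES level and HE1 replicate 1 was below it. The change was called in HB (log2 change -1.69 ± 0.49 (SE), adjusted p = 0.0186) and HE2 (log2 change -1.41 ± 0.483 (SE), adjusted p = 0.0316), and its change in HP (log2 change -1.03 ± 0.473 (SE), adjusted p = 0.0922) was not called. The rise from HB to HE1 was not called (log2 change 1.37 ± 0.495 (SE), adjusted p = 0.057), but it was called without the filter on low counts. The call in HB was lost when any of the 4 ES and HB libraries was left out (adjusted p up to 0.0982), and that in HE2 was lost without either ES library or without HE2 replicate 2 (adjusted p up to 0.177), with total counts in place of TMM (adjusted p = 0.0514) and with the replicate block (adjusted p = 0.051).

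Psmb8, which replaces Psmb5 in the immunoproteasome, was at 2.91 and 2.95 CPM in ES, 7.41 and 6.06 in HB, followed by 1.72 and 1.82 in HE1, 1.43 and 0.73 CPM in HE2 and 2.76 and 2.48 in HP. No neighbours in its order overlapped, from HB at the top through ES, HP and HE1 to HE2. It rose in HB (log2 change 1.20 ± 0.358 (SE), adjusted p = 0.0213), fell from HB to HE1 (log2 change -1.92 ± 0.374 (SE), adjusted p = 0.00359) and was lower in HE2 than in ES (log2 change -1.43 ± 0.377 (SE), adjusted p = 0.00877). The rise in HB kept a log2 change of at least 1.07 but lost its call when any of the 4 ES and HB libraries was left out (adjusted p up to 0.123), and without HE2 replicate 2 the change in HE2 was -1.04 (adjusted p = 0.0604). Psmb9, which replaces Psmb6, was at 1.45 and 1.38 CPM in ES, 1.52 and 1.24 in HB, followed by 0.589 and 0.958 in HE1, 0.396 and 0.413 CPM in HE2 and 1.46 and 0.763 in HP. These levels rest on 13 counts in each HE2 library and 14 to 82 counts in the others. Psmb9 was called lower in HE2 only (log2 change -1.80 ± 0.506 (SE), adjusted p = 0.0124), and this call was lost when any of the 4 libraries of these stages was left out (adjusted p up to 0.0669). Psmb10, which replaces Psmb7, was at 15.5 and 15.6 CPM in ES, 23.2 and 19.5 in HB, followed by 13.1 and 12.7 in HE1, 21 and 29.9 CPM in HE2 and 38.8 and 23.7 in HP. Both HP libraries were above both ES libraries, and HP and HE2 overlapped. Psmb10 was called higher in HP (log2 change 1.01 ± 0.249 (SE), adjusted p = 0.00627), at the edge of the 2-fold limit, and was not called by limma-voom or DESeq2, for which its log2 change was under 1. Without HP replicate 1 the change was 0.61 (adjusted p = 0.0772), and without either ES library or either HB library it was 0.99 to 1.00, just under the limit. In HE2 against HE1 it reached an adjusted p of 0.0345 at a log2 change of 0.98.

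**Figure D2:**
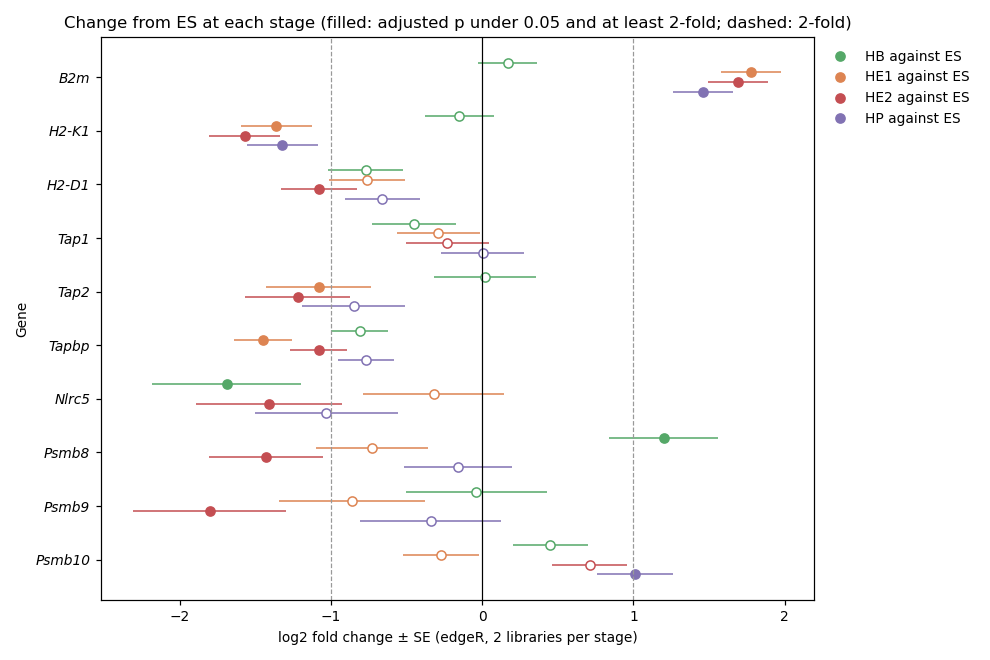
Log2 fold change against ES (x axis, ± SE) of each of the 10 genes (y axis) in HB, HE1, HE2 and HP, from edgeR with 2 libraries per stage. Filled points were called, dashed lines mark 2-fold. B2m is to the right of 1 in 3 stages, and 7 genes have a filled point to the left of -1 in HE2. The 4 comparisons share the ES libraries.

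Counted over the set, leaving the ES state was not marked by a general rise. In HB, 1 of the 10 genes was called higher (Psmb8) and 1 lower (Nlrc5), against 11.5% and 17.3% of all tested genes, and the median log2 change of the 10 was -0.10. Both counts fell to 0 when any of the 4 ES and HB libraries was left out. In HE1, 1 was higher (B2m) and 3 lower (H2-K1, Tap2 and Tapbp), against 20.3% and 20.4%, with a median of -0.74, and 2 were lower without HE1 replicate 2 or either ES library and 4 without HE1 replicate 1. In HE2, 1 was higher and 7 lower, against 16.3% and 21.9%, with a median of -1.15. Without HE2 replicate 2, however, only H2-K1 and Tapbp remained called lower in HE2. In HP, 2 were higher (B2m and Psmb10) and 1 was lower (H2-K1), against 16.7% and 21.9%, with a median of -0.50. The 2 higher became 1 without either ES library, either HB library or HP replicate 1, and with limma-voom, DESeq2, the replicate block or library sizes that leave out the 20 most counted genes, and the 1 lower became 2 without HE1 replicate 1 or HP replicate 1. These 4 comparisons share the ES libraries and are not independent of each other. The median over all tested genes was between -0.042 and 0 in each of them.

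Between neighbouring stages, calls were made in the step from HB to HE1, with 1 gene higher (B2m) and 3 lower (H2-K1, Tap2 and Psmb8), against 12.7% and 8.19% of all tested genes. Without HE1 replicate 2, 1 was lower (Psmb8). From HE1 to HE2 none of the 10 was called by edgeR, limma-voom or DESeq2, against 3.26% higher and 5.39% lower over all genes. Psmb10 was just under the 2-fold limit there (log2 change 0.98, adjusted p = 0.0345 in edgeR). Leaving out 1 library gave log2 changes of 0.71 to 1.23 for Psmb10 and -1.70 to -0.51 for Nlrc5, on both sides of the limit. At an unadjusted p under 0.05 edgeR had 1 gene higher (Psmb10) and 1 lower (Nlrc5) in that step, beside 3549 higher and 4442 lower of all 22596. From HE2 to HP none of the 10 was called by any of these tools, and edgeR called 0% of all tested genes (670 higher and 1113 lower at an unadjusted p under 0.05), limma-voom 62 genes and DESeq2 301, with 2 of the 10 higher at an unadjusted p under 0.05 (Psmb8 and Psmb9). The log2 change from HE2 to HP was above 0 for 9 of the 10 genes, with a median of 0.34 beside 0.012 over all tested genes, and for H2-K1, Tap1, Tap2, Nlrc5 and Psmb10 it turned sign when 1 library was left out.

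The subunits exchanged in the immunoproteasome were compared with their constitutive counterparts within each library, per kb of annotated exon. Psmb5, Psmb6 and Psmb7 were not called in any comparison, and Psmb5 lay between 46.6 and 67.6 CPM. Psmb8 was at 1.28% and 1.3% of Psmb5 in ES, 4% and 2.57% in HB, followed by 0.933% and 1.03% of it in HE1, 0.597% and 0.302% of it in HE2 and 1.09% and 1.41% in HP. HB lay above all other stages and HE2 below them. Psmb9 was at 0.572% and 0.576% of Psmb6 in ES and 0.128% and 0.111% in HE2, which was again below every other stage. Psmb10 was at 24.1% and 25.2% of Psmb7 in ES, 20.5% and 20.5% in HE1, and 42.6% and 35.1% in HP. Per kb, Psmb10 was thus present at a larger part of its counterpart than the other 2 subunits in every library. The size of this gap rests in part on exon length. The exons were 3381 bases for Psmb8 and 899 for Psmb5, but 1705 for Psmb10 and 3421 for Psmb7. On counts without length, the gap to Psmb8 was narrow in HB. Psmb8 had 224 and 215 counts there beside 1490 and 2223 of Psmb5. Psmb10 had 703 and 691 counts beside 3726 and 5791 of Psmb7. With 2 against 2 libraries an exact permutation test cannot go below a p of 0.33, and these ratios were not tested. Of the windows of 100 bases in Psmb5 transcripts, 22.2% also occur in transcripts of other genes, and reads aligned to several places were not counted, so the Psmb5 level may be too low and its ratio too high.

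**Figure D3:**
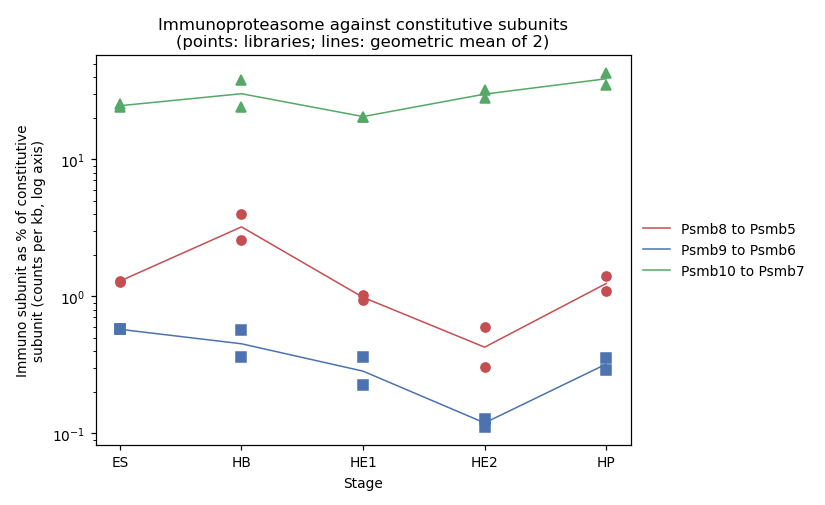
Immunoproteasome subunit as a percent of its constitutive counterpart, in counts per kb (y axis, log scale), by stage (x axis), with 1 point per library and lines through the geometric means. Psmb10 stays between 20.5% and 42.6% of Psmb7, while Psmb8 and Psmb9 stay at or under 4% of Psmb5 and Psmb6.

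Beside H2-K1 and H2-D1, the mouse MHC holds the non-classical H2-Q, H2-T and H2-M heavy chain genes, and these changed in composition. Of 18 genes listed, 17 were in the tables and 12 were tested, the others being at or near 0. In HB, 4 of the 12 were called higher and 4 lower, beside 11.5% and 17.3% of all tested genes. In HP 3 were higher (25% beside 16.7% of all tested genes) and 8 lower (66.7% beside 21.9%), and the median log2 change was -3.50. The genes that rose were all H2-T genes. H2-T24 had 0 counts in both ES libraries and was at 9.31 and 6.83 CPM in HP, at least 93.8-fold higher than the floor of 3 counts in a library. H2-T23, the gene of the Qa-1 antigen that is read by natural killer cell receptors, was at 0.071 and 0.143 CPM in ES and at 3.9 and 2.61 in HP (log2 change 4.95 ± 0.613 (SE), adjusted p = 7.94e-05). H2-T22, a ligand of some γδ T cells, was at 2.5 and 2.58 CPM in ES, 9.22 and 8.17 in HB, and 9.06 and 8.68 in HP (log2 change 1.80 ± 0.264 (SE), adjusted p = 0.000251). The genes that fell were H2-M and H2-Q genes. H2-M5 was at 37.1 and 36.7 CPM in ES and at 0.727 and 0.535 in HB (log2 change -5.87 ± 0.443 (SE), adjusted p = 5.61e-06). H2-Q6 was at 3.14 and 2.67 CPM in ES and had 2 and 1 counts in HP, and was called lower there. H2-Q4 had 17.5 and 19.1 CPM in ES, 18.3 and 14.7 in HB and 2.33 and 2.38 in HP.

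Per kb of exon, the 19 heavy chain genes found in the tables summed to 59.5 ± 2.29 CPM per kb (SD, n = 2) in ES and 39.2 ± 2.2 in HB, against 23.1 ± 5.16 in HE1, 21.1 ± 1.77 for HE2 and 25.4 ± 4.62 in HP. H2-K1 made up 31.9% and 32.8% of this sum in ES, 43.9% and 44.4% in HB and 32.3% and 27.9% in HP. H2-T genes rose from 1.7% and 1.6% of the sum in ES to 30% and 30.7% in HP, while H2-M genes went from 26.9% and 25.9% to 3.01% and 3.62%. The B2m level per kb was 0.325 and 0.308 of the heavy chain sum in ES and 0.476 and 0.609 in HB. It was 2.73 and 2.91 times the sum in HE1, 2.93 and 2.85 times in HE2, and 2.08 and 1.98 times in HP. Per kb, B2m was thus below the summed heavy chains in every library of ES and HB and above them in the later stages. Without the division by length, B2m was below the sum in every library, at 0.102 and 0.0975 of it in ES, 0.146 and 0.187 in HB, and 0.629 to 0.931 in the later stages, so the crossing rests on the exon lengths, whereas the higher ratio in the later stages does not. These are ratios of nuclear RNA and not of protein. Windows of 100 bases shared with other genes made up 0.957% of H2-K1, 3.59% of H2-D1, 12% of H2-Q7, 10.8% of H2-Q6, 8.86% of H2-T22 and 0% of B2m, H2-T24 and H2-M5, so H2-Q6, H2-Q7 and H2-T22 are less certain.

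**Figure D4:**
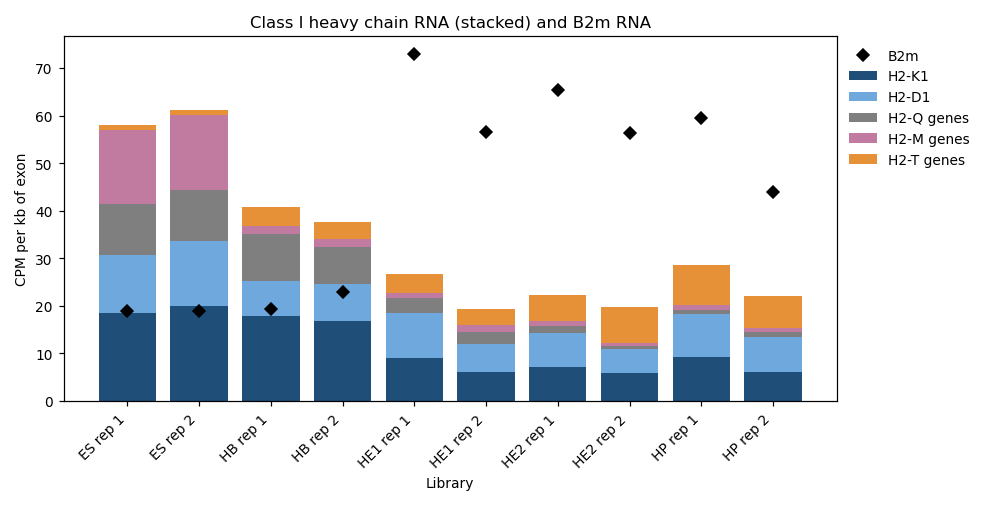
Level per kb of exon (y axis, CPM per kb, from 0) of class I heavy chain RNA, stacked by gene family, in each of the 10 libraries (x axis), with B2m as diamonds. The stacks are at 59.5 on average in ES and 25.4 in HP, and B2m on this scale per kb lies below the stack in ES and HB and above it in HE1, HE2 and HP.

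Factors that act on class I promoters did not move together. Of 13 such genes, 5 were called higher in HP than in ES and 1 lower (16.7% and 21.9% of all tested genes), with a median log2 change of 0.45. Irf1, the main interferon-induced activator of class I genes, was at 52.8 and 51.5 CPM in ES, 38.4 and 32.8 in HB, followed by 20.1 and 23.3 in HE1, 14.9 and 19.9 CPM in HE2 and 24.6 and 21.1 in HP. It was lower in HE1 (log2 change -1.26 ± 0.185 (SE), adjusted p = 0.000262), HE2 (log2 change -1.59 ± 0.186 (SE), adjusted p = 5.7e-05) and HP (log2 change -1.19 ± 0.184 (SE), adjusted p = 0.00036). Irf2, a related factor that binds the same element, was at 1.29 and 1.61 CPM in ES, 22 and 22 in HB, followed by 55.2 and 77 in HE1, 43.9 and 38.4 CPM in HE2 and 42.5 and 39.7 in HP, and was higher than in ES in all 4 later stages, by log2 change 3.93 ± 0.218 (SE), adjusted p = 1.03e-06 in HB. Rfxap, a subunit of the RFX complex through which Nlrc5 acts, was at 4.15 and 4.19 CPM in ES and 11.7 and 13.2 in HB (log2 change 1.57 ± 0.243 (SE), adjusted p = 0.000538), whereas Rfx5 was not called in any comparison. The NF-kB genes Nfkb1 (log2 change 1.59 ± 0.167 (SE), adjusted p = 2.94e-05) and Rela (log2 change 1.26 ± 0.15 (SE), adjusted p = 6.98e-05) were higher in HE1 than in ES.

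Several interferon receptor and kinase genes rose after the ES stage. Of 12 receptor and signalling genes, 6 were called higher in HP than in ES and 1 lower (16.7% and 21.9% of all tested genes), and 3 were higher and 1 lower in HB (11.5% and 17.3%). Ifngr2, a chain of the interferon-γ receptor, was at 4.22 and 4.62 CPM in ES, 19.1 and 19.2 in HB, and 26.1 and 24.7 in HP (log2 change 2.53 ± 0.193 (SE), adjusted p = 3.21e-06). Jak2, the kinase bound to it, was at 13.5 and 13.7 CPM in ES, 50.4 and 55 in HB and 91.6 and 94.4 in HE2 (log2 change 2.77 ± 0.201 (SE), adjusted p = 2.36e-06). The ES libraries were below all others for both genes. Tyk2, another receptor kinase, was at 53 and 51.6 CPM in ES and 37.1 and 31.9 in HB, which was not called (log2 change -0.60 ± 0.16 (SE), adjusted p = 0.0122). Socs3, a feedback inhibitor of cytokine receptors, was the gene called lower in HP (log2 change -2.16 ± 0.291 (SE), adjusted p = 0.000143). Ifng had 0 counts in all 10 libraries, which allows up to 0.051 to 0.12 CPM, and none of 6 interferon genes passed the filter on low counts. Ifnb1 had 3 counts in HE2 replicate 2, 5 and 3 in HP and 0 in the other libraries.

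**Figure D5:**
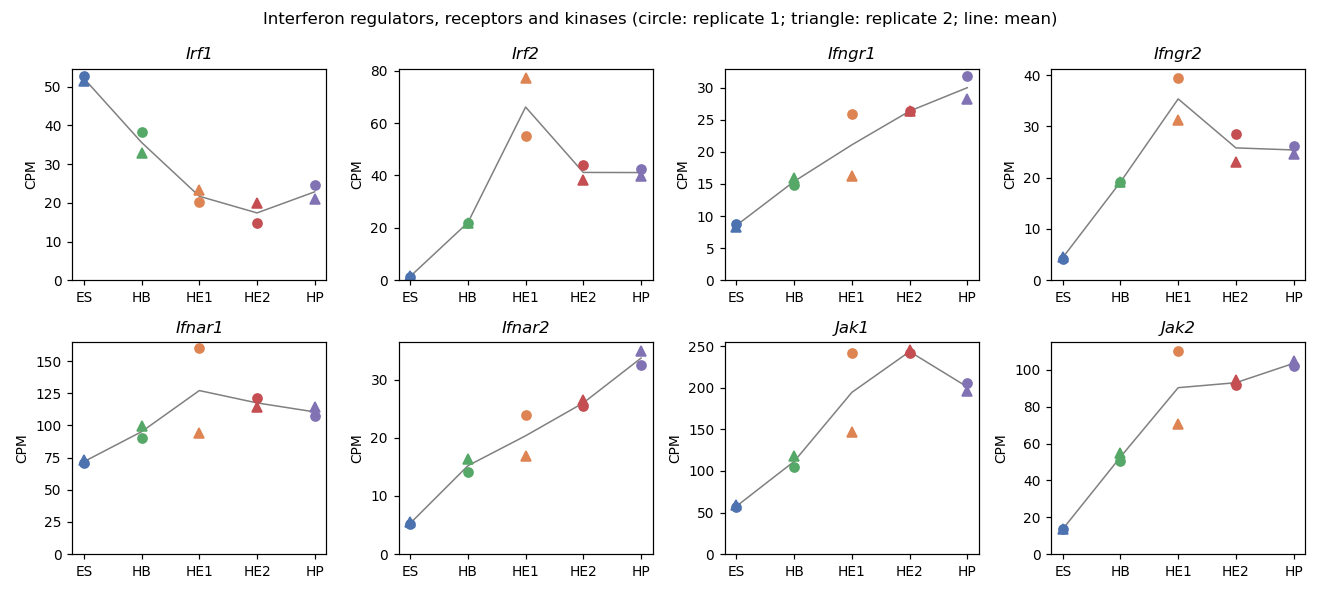
Level in CPM (y axis, from 0) of Irf1, Irf2 and genes of interferon receptors and their kinases in the 10 libraries by stage (x axis), with 1 point per library and lines through the means. Irf1 falls from 52.8 and 51.5 in ES, whereas Irf2 and the receptor and kinase genes plotted are higher in both HB libraries than in both ES libraries. Tyk2, not plotted, was lower in HB.

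The 32 interferon-stimulated genes listed, all tested, were mixed. In HB 2 were called higher and 13 lower (11.5% and 17.3% of all tested genes), with a median log2 change of -0.93 (-0.82 with genes at 0 in a stage set to the floor), and in HP 15 were higher and 6 lower (16.7% and 21.9% of all tested genes), with a median of 0.94. The highest log2 change in HP was that of Usp18, an inhibitor of interferon signalling with 3 and 4 counts in ES (log2 change 6.93 ± 0.767 (SE), adjusted p = 3.76e-05). Usp18 was at 16.4 and 17.4 CPM in HB, 1.51 and 0.198 in HE1 and 9.26 and 10.6 in HP, and was also 1 of the 2 genes called higher in HB. In HP Ifitm1, which encodes a membrane protein that restricts viruses, fell (log2 change -2.92 ± 0.428 (SE), adjusted p = 0.000247). Beside these counts, the summed level of 8 macrophage markers was 18 to 18.9 CPM in ES and 42.3 to 50.3 in HP, with C1qa at 0 in all libraries. Of this sum, Cd68 made up 14.1 and 14.8 CPM in ES and 8.94 and 13.9 in HP. Of the 6 macrophage markers tested, 4 were called higher in HP and 0 lower (16.7% and 21.9% of all tested genes). The sum of 6 neutrophil and mast cell markers was 0.177 to 0.287 in ES and 115 to 255 in HP. Mpo made up 247 and 111 CPM of the latter, and S100a8 was at 0 in all libraries. The 6 mesenchyme and muscle markers summed to 135 to 151 CPM in ES and 104 to 105 in HB. They summed to 843 to 1662 in HE1, 634 to 970 in HE2 and 575 to 1178 in HP. The part of such cells in the changes of the class I genes was not tested.

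Of 9 loading and trimming genes, 4 were called lower in HB and none higher (17.3% and 11.5% of all tested genes), and 0 of the 9 were at a positive log2 change. The 4 were Calr, Pdia3, Hspa5 and Hsp90b1, general chaperones and folding enzymes of the endoplasmic reticulum, while Canx (log2 change -0.96 ± 0.188 (SE), adjusted p = 0.00221) and the tapasin relative Tapbpl (log2 change -0.50 ± 0.387 (SE), adjusted p = 0.338) were not called. Calr, encoding the lectin calreticulin, was at 1296 and 1300 CPM in ES, 439 and 448 in HB (log2 change -1.55 ± 0.186 (SE), adjusted p = 0.000107) and 943 and 698 in HP, where its change was not called (log2 change -0.66 ± 0.183 (SE), adjusted p = 0.0112). Hsp90b1, a chaperone of the endoplasmic reticulum, was at 1529 and 1600 CPM in ES and 547 and 530 in HP (log2 change -1.54 ± 0.158 (SE), adjusted p = 2.29e-05) and was the 1 gene of the list called lower in HE1, HE2 and HP. These chaperones also serve many proteins other than class I molecules. Erap1, which trims peptides, was at 20 and 20.6 CPM in ES and 32.5 and 25.2 in HP and was not called. Of the 5 proteasome activator and assembly genes, which include the interferon-inducible Psme1 and Psme2, none was called by edgeR in any comparison, and 2 of the 5 were higher in HP than in ES at an unadjusted p under 0.05, beside 6112 of all 22596 tested genes.

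Of 8 tested class II genes of 11, none was called higher in HP than in ES and 5 were lower (16.7% and 21.9% of all tested genes), including Cd74, the invariant chain, at 3.72 and 3.33 CPM in ES and 0.502 and 0.381 in HP (log2 change -2.98 ± 0.642 (SE), adjusted p = 0.00287). Ciita, the transactivator of class II genes and a relative of Nlrc5, was at 0.905 and 0.746 CPM in ES and had 0 counts in both HE1 libraries, at least 6.54-fold lower at the floor of 3 counts in a library. In HB, 2 of the 8 were higher and 3 lower, beside 11.5% and 17.3%. H2-Ab1 was at 0.834 and 1.61 CPM in ES and 6.55 and 8.06 in HB (log2 change 2.59 ± 0.428 (SE), adjusted p = 0.00083). Of the 6 class I-like genes tested, Procr, the endothelial protein C receptor, was at 1.58 and 0.975 CPM in ES and 21.3 and 22.2 in HE1 (log2 change 4.07 ± 0.363 (SE), adjusted p = 1.01e-05), and Fcgrt, the neonatal Fc receptor, was at 8.96 and 8.32 CPM in ES and 0.593 and 0.381 in HP (log2 change -4.12 ± 0.489 (SE), adjusted p = 5.96e-05). Fcgrt, like the classical heavy chains, pairs with B2m. Of 4 tested ligands of natural killer cell receptors, 2 were called lower than in ES in HE2 and 2 in HP (21.9% of all tested genes in both). In both stages 0 were called higher (16.3% and 16.7% of all tested genes). Ulbp1, a stress ligand of natural killer cells, was at 22.4 and 24.4 CPM in ES, 3.64 and 3.3 in HB and 23.7 and 18.5 in HE1. It fell from ES to HB (log2 change -2.75 ± 0.274 (SE), adjusted p = 3.25e-05) and rose from HB to HE1 (log2 change 2.60 ± 0.274 (SE), adjusted p = 0.000105), and HE1 against ES was not called (log2 change -0.15 ± 0.251 (SE), adjusted p = 0.634).

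The members did not share 1 profile. Z-scores over the 5 stage means of log2 CPM were closest between H2-K1 and Tap2, with a root mean square difference of 0.149, and farthest between B2m and H2-K1, at 1.784. Psmb8 and Psmb9 were nearest to each other at 0.434, and H2-D1 and Tapbp at 0.492. Psmb9 and Tap1 overlap by 212 bases on opposite strands and Psmb8 starts 495 bases after the end of Tap1, yet Psmb9 and Psmb8 were called lower in HE2 and Tap1 was not, a difference between genes that was not tested. The gene of the other 12228 with at least 9 CPM in a stage that came closest to the mean profile was Snrnp70, a splicing factor, at a difference of 0.447, but the members' profiles partly cancel in their mean, so that no Z-score profile could come closer to it than 0.436. It was followed by Mtf1 (0.453), Pcf11 (0.453), St6galnac2 (0.455) and Slc25a28 (0.458). Of 63 tested genes that start within 100 kb of a member and belong to no list, 1 was called higher and 13 lower in HB, and 5 higher and 11 lower in HP, with medians of -0.16 and -0.19. The shares called lower were thus 20.6% in HB and 17.5% in HP, beside 17.3% and 21.9% of all tested genes, and the shares called higher were 1.59% and 7.94%, beside 11.5% and 16.7%.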

How the data were processed

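Nuclear RNA-seq counts were analysed for 10 libraries, 2 for each of ES, HB, HE1, HE2 and HP. The authors filtered the reads, aligned them to mm10 with HISAT2 (2.2.1) and deposited raw counts per gene from featureCounts (2.0.1), which, per the file headers, are read pairs on exons of Ensembl release 102 counted by strand, where a pair over several genes counts for each and reads aligned to several places not counted. The authors also deposited a matrix with 1 expression score per stage, a mean over libraries, which was used to choose the genes and differed from the mean log2 CPM of the counts (limma-voom) by at most 4.1e-08. The totals per library were 24920434 to 58782055 counts.

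Counts were fitted with edgeR (4.0.16, R 4.3.3): filterByExpr, TMM scaling, a quasi-likelihood fit of stage over all 10 libraries (5 residual degrees of freedom) and Benjamini-Hochberg adjustment over 22596 genes. Calls needed an adjusted p under 0.05 and a change of 2-fold or more. The analysis was tested on simulated data, where edgeR recovered 69% of 200 genes changed by 2 on the log2 scale between ES and HB, with 4 false calls among 22596 genes. Levels per kb use the length of all annotated exons of a gene. Bounds for genes at 0 use 3 counts in a library. The alternatives were limma-voom (3.58.1), DESeq2 (1.42.0), library totals unscaled by TMM, no filter, fits on 2 stages, a replicate block, library sizes that leave out the 20 most counted genes, and leaving out each library. Of the wider lists, only some genes are named, mostly called genes with large changes and genes on which a result turns. Genes with a larger change in the same list are not always among them. The members and lists were chosen with earlier results of these data known. The values of 1 gene of the wider lists are not reported here, although the counts over those lists include it.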

Additional observations from a re-analysis of the deposited data

How the results depend on the processing

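Of 21 calls of single genes, 10 were kept under all 17 alternatives and none changed direction. The number of the 10 genes called higher in HP than in ES fell from 2 to 1 with limma-voom, DESeq2, the replicate block or library sizes that leave out the 20 most counted genes, since the log2 change of Psmb10 was at the 2-fold limit. Without the filter on low counts, 2 genes (B2m and Nlrc5) in place of 1 were higher in HE1 than in HB. Leaving out 1 library gave 0 to 1 genes higher and 0 to 1 lower in HB than in ES, 2 to 4 lower in HE1 than in ES, 2 to 7 lower in HE2 than in ES, 1 to 2 higher and 1 to 2 lower in HP than in ES, 1 to 2 higher and 1 to 3 lower in HE1 than in HB, and 0 to 1 higher and 0 to 1 lower in HE2 than in HE1. The cause was not tested. With 1 library left in a stage, it is assumed to vary like the others.

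Deviations of replicate 1 from its stage mean were correlated between stages at -0.316 to 0.213, over 0.1 in 2 of 10 pairs. Those 2 were HB with HE2 (0.213) and HE1 with HP (0.133). The correlation was -0.316 for HB with HP, -0.311 for HE2 with HP, -0.207 for HB with HE1 and -0.179 for HE1 with HE2. Equal replicate numbers thus did not track together over the stages, while a pairing under other numbers was not tested. The replicate block uses the same numbers and cannot take up such a pairing. With total counts in place of TMM, the calls of Tap2 in HE1 against ES and of Nlrc5 in HE2 against ES were lost. With the replicate block, 1 gene was called higher in HP than in ES, Nlrc5 in HE2 against ES had an adjusted p of 0.051, and Psmb10 in HP had a log2 change of 0.99.

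Changes near 0, none of them called, turned sign. These were Psmb9 in HB against ES (0.04 with total counts), Tap1 in HP against ES (-0.02 with DESeq2, -0.01 with the block, -0.0033 without the 20 genes), H2-D1 in HE1 against HB (-0.05 with limma-voom, -0.02 with the block, -0.03 without the 20 genes) and Tap1 in HE2 against HE1 (-0.0042 with total counts). Leaving out 1 library gave -0.02 to 0.09 for Tap2 and -0.17 to 0.11 for Psmb9 in HB against ES, -0.76 to 0.06 for Tap1 and -0.89 to 0.05 for Nlrc5 in HE1 against ES, -0.56 to 0.03 for Tap1 in HE2 against ES, and -0.07 to 0.07 for Tap1 and -0.89 to 0.04 for Psmb9 in HP against ES. In HE1 against HB it gave -0.41 to 0.32 for H2-D1 and -0.33 to 0.51 for Tap1. In HE2 against HE1 it gave -0.26 to 0.13 for B2m, -0.48 to 0.13 for H2-K1, -0.63 to 0.08 for H2-D1, -0.29 to 0.53 for Tap1 and -0.62 to 0.28 for Tap2. In HP against HE2 it gave -0.07 to 0.52 for H2-K1, -0.03 to 0.56 for Tap1, -0.002 to 0.87 for Tap2, -0.06 to 1.01 for Nlrc5 and -0.10 to 0.61 for Psmb10.

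Without the correction for length, which shifts every stage alike, the mean log2 ratio of Psmb8 to Psmb5 from ES through HB, HE1 and HE2 to HP was -4.36, -3.05, -4.76, -5.97 and -4.42, that of Psmb9 to Psmb6 was -6.48, -6.83, -7.49, -8.75 and -7.32 in the same order, and that of Psmb10 to Psmb7 was -3.03, -2.74, -3.29, -2.75 and -2.38. Without length, an alternative chosen after seeing the data, the mean ratio of B2m to the summed heavy chains in that order was 0.0999, 0.167, 0.886, 0.91 and 0.644. Depth limits Psmb9, Psmb8 and Nlrc5 most, which have few counts per library.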

Other observations

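In HE1, HE2 and HP, replicate 1 was above replicate 2 in each of the 3 stages for B2m, H2-K1, H2-D1, Tap1, Tap2 and Tapbp, which are 6 of the 10 class I genes. The same was so for 2273 of all 22596 tested genes. Psmb8, Psmb9, Psmb10 and Nlrc5 were mixed. The labels give the replicates of different stages nothing in common but the number, and this was seen after the values were known.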
